A study of Mus musculus with 8 samples.

Results

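RNA sequencing of mouse brain compared 2 libraries labelled Ep1 with a treatment of 20 J/cm2 (Ep1 3 and Ep1 4) with 4 untreated libraries labelled Ctrl (Ctrl 1 to 4). These are 6 of the 8 libraries of the study, and the other 2, Ep1 1 and Ep1 2, carried the label 10 J/cm2. The samples were chosen by their labels alone, and the genes by level: 14838 of 55780 genes reached a mean of 1 FPKM (fragments scaled by gene length and library depth) in either group and were tested. All mice were C57BL/6, the labels do not spell out Ep1, and no label gave an age, sex, genotype or time after treatment. The Ep1 labels name PDT at the stated energy, the series title names MNP treatment and its design text names magnetic force, so the labels do not settle what the treatment was. The labels give the tissue as brain and the cell type as brain microvessel endothelial cells, with total RNA as the material. The levels were those of whole tissue: Camk2a, a kinase gene of excitatory neurons, stood at 434, 427, 436 and 469 FPKM in Ctrl 1 to 4 and Cldn5, the main claudin gene of brain endothelium, at 24.3, 22.8, 16.2 and 21.03 FPKM. In such bulk samples fewer cells of a type and less RNA per cell cannot be told apart. Separate animals are not stated in any label, so the p-values measure the spread between these libraries, which may be technical.

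Brain tissue under oxidative, thermal or mechanical stress is known to switch on several transcription programs: heat shock chaperones through HSF1, antioxidant and haem-degrading enzymes through NRF2, growth arrest genes through p53, and immediate early genes of the AP-1 and EGR families through MAP kinases. Microglia and endothelial cells are known to answer injury with chemokines and with the feedback inhibitors of NF-kB and STAT3. The endothelium of brain vessels forms the blood-brain barrier, with tight junctions that seal the vessel wall and transporters that move nutrients in and drugs out.

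The libraries held 15038147 to 17772972 fragments each. At 1 kb of gene length, 3 fragments correspond to between 0.164 and 0.202 FPKM. Among the controls Ctrl 3 was the odd library, with a Pearson correlation to the rest of 0.967 to 0.971 across genes, against 0.986 to 0.988 among the other 3. Mitochondrial transcripts made up 5.08% of its fragments and the single gene CT010467.1 1.46%, against 3.24% to 3.50% and 0.123% to 0.156% in the other 3 controls. Ep1 3 and Ep1 4 correlated at 0.985 with each other. Where leaving out a library changed the call of a gene described with its values, this is stated beside the result. Changes of a list's count by more than 1.5 times are given for many fits but not for every one.

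At 20 J/cm2, 3239 of 14838 genes (21.8%) reached an adjusted p under 0.05 by limma, a linear model with a spread shared across genes. Of these 1964 (13.2% of those tested) were higher than in Ctrl and 1275 (8.59%) lower. A log2 change of at least 1 was passed by 283 higher genes (1.91%) and by 72 lower genes (0.485%). Changes are differences of log2(FPKM + 1), so those of genes at low levels are understated. A gene with a mean under 1 FPKM in a group entered the test only through the other group, in which it is high. The 2 Ep1 values lay outside the range of the 4 Ctrl values for 7585 genes (51.1%), and for each of the 3239 genes called. The balance of directions depended on scaling. Quantile normalization gave 1660 higher and 1646 lower genes, and leaving out mitochondrial genes with CT010467.1 gave 1598 and 1797. Voom weights on the recovered fragments gave 1960 and 1827, while the median change of all tested genes stayed between -0.04 and 0.02 under these scalings. The number of calls rested on every library. It was 2204 without Ctrl 1, 1985 without Ctrl 2, 4667 without Ctrl 3, 2187 without Ctrl 4, 1028 without Ep1 3 and 579 without Ep1 4. In the last pair of fits the single remaining Ep1 library is assumed to vary as the controls do. The genes called with all 6 libraries and again with any 1 of them left out numbered 491, of which 366 were higher and 125 lower.

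**Figure D1:**
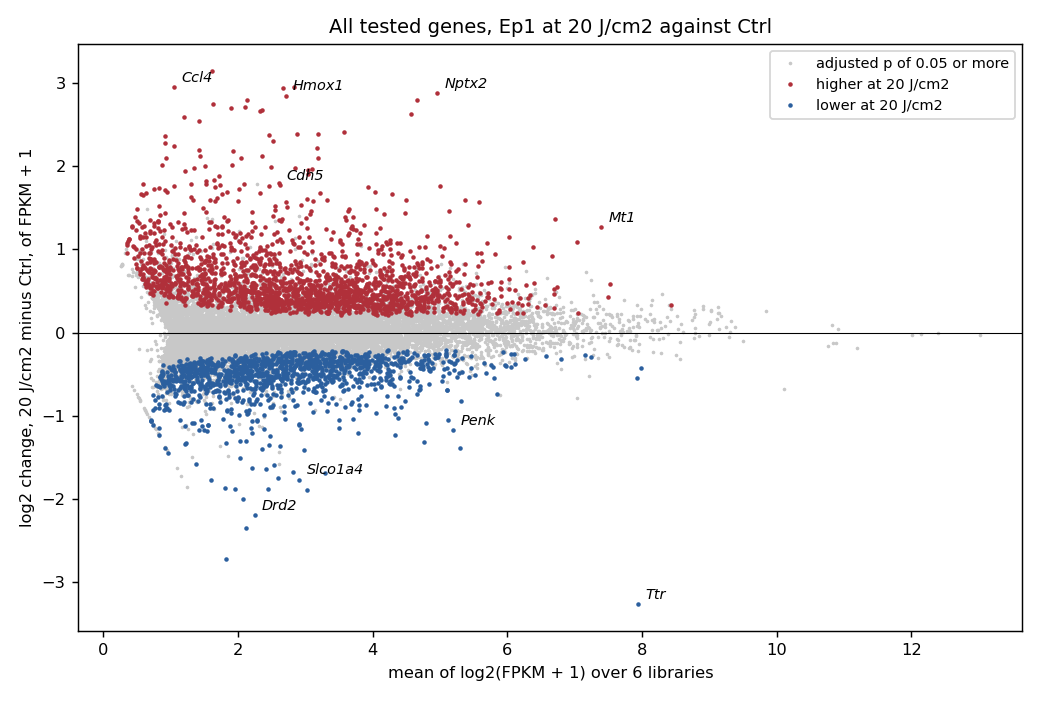
Log2 change of FPKM + 1 (20 J/cm2 minus Ctrl, vertical axis) against the mean of log2(FPKM + 1) over the 6 libraries (horizontal axis) for the 14838 tested genes, 1 point a gene. The 1964 genes called higher are red, the 1275 called lower are blue and the others grey, and the largest fall, Ttr at -3.27, lies at a high level while the largest rises lie at lower levels.

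The largest rises joined chemokine, growth arrest, heat shock, haem-degrading and neuronal genes. Cdkn1a, which encodes the cell cycle inhibitor p21, read 2.01, 2.55, 2.56 and 3.42 FPKM in Ctrl 1 to 4 and 26.8 and 26.9 FPKM in Ep1 3 and 4. Both Ep1 libraries gave nearly the same value, 10.2 times the mean of the controls (log2 change 2.95 ± 0.14 SE, limma adjusted p = 0.000245). The neuronal pentraxin gene Nptx2, whose product gathers AMPA receptors at excitatory synapses, read 15.4, 15.3, 13.2 and 16.3 FPKM in Ctrl and 109 and 125 FPKM in Ep1 (log2 change 2.88 ± 0.10 SE, limma adjusted p = 0.000149). Hmox1, the inducible haem oxygenase that degrades haem to iron, carbon monoxide and biliverdin, read 2.37, 2.18, 2.85 and 2.17 FPKM in Ctrl and 20.2 and 27.2 FPKM in Ep1 (log2 change 2.85 ± 0.14 SE, limma adjusted p = 0.000245). For these 3 genes every Ep1 value was far above every control, and the log2 change kept within 2.87 to 3.05, 2.78 to 2.97 and 2.65 to 3.06 when any 1 library was left out. In GRCm38 these genes lie as follows: Cdkn1a (ENSMUSG00000023067, chromosome 17, 29090976 to 29100727), Nptx2 (ENSMUSG00000059991, chromosome 5, 144545902 to 144557478) and Hmox1 (ENSMUSG00000005413, chromosome 8, 75093621 to 75100589).

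Among the other largest rises, that of Ccl4 began near the floor of detection. Ccl4, a chemokine gene of activated microglia and macrophages, had 1, 0, 0 and 1 fragments in Ctrl 1 to 4 and 56 and 98 fragments in Ep1 3 and 4, and its value rose from 0.0874, 0, 0 and 0.0899 to 4.96 and 9.99 FPKM (limma adjusted p = 0.000737). Adm, the gene of the vasodilator peptide adrenomedullin, read 0.535, 0.708, 0.586 and 0.696 FPKM in Ctrl and 9.31 and 10.7 FPKM in Ep1, 15.9 times the mean control (log2 change 2.75 ± 0.10 SE, limma adjusted p = 0.000149). Socs3, the feedback inhibitor of STAT3 signalling, read 0.918, 1.26, 0.897 and 0.903 FPKM in Ctrl and 10.4 and 13.8 FPKM in Ep1. Among these 3 genes Ep1 4 gave the higher value of the pair each time, and no control came near either Ep1 library. Ctla2a, a gene of a cathepsin inhibitor, went from 1.59, 1.11, 1.62 and 0.985 FPKM to 14.2 and 15.9 FPKM, and Tubb6, a beta-tubulin gene, from 2.06, 0.896, 1.22 and 1.12 FPKM to 12.6 and 15.6 FPKM. The lipopolysaccharide co-receptor gene Cd14 read 1.73, 1.83, 1.68 and 1.82 FPKM in Ctrl and 12.3 and 22.6 FPKM in Ep1. The globin gene Hba-a1 read 11.3, 12.4, 11.4 and 14.1 FPKM in Ctrl and 63.4 and 131 FPKM in Ep1. In Ccl4, Cd14 and Hba-a1 Ep1 4 lay well above Ep1 3, and all 3 stayed called whichever library was left out. Hspa1a and Hspa1b complete the 12 largest rises and are described with the other heat shock genes. Hba-a1, Hspa1a and Hspa1b have close copies in the genome, so their single values are uncertain where reads were shared between copies.

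**Figure D2:**
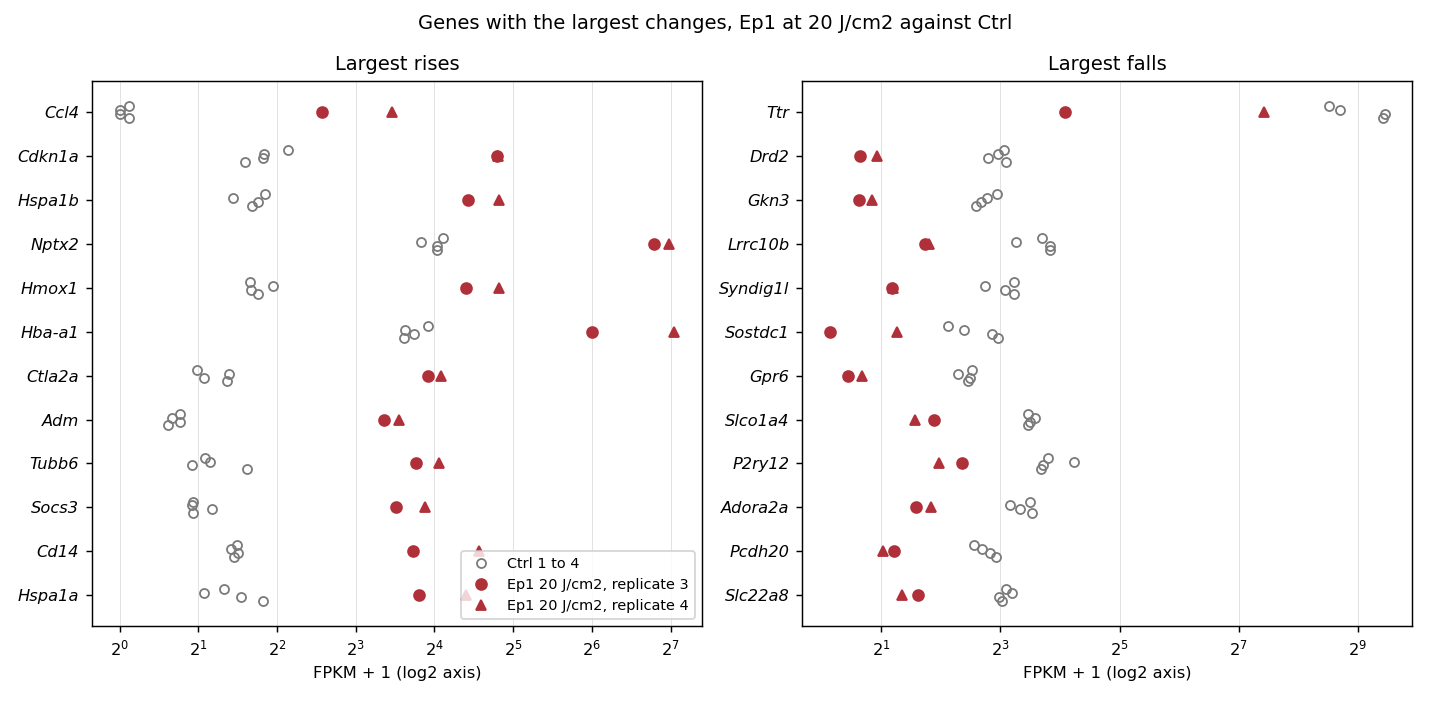
FPKM + 1 on a log2 axis for the 12 called genes with the largest rises (left) and the 12 with the largest falls (right). Open circles are Ctrl 1 to 4, and filled symbols are Ep1 at 20 J/cm2, replicate 3 (circle) and replicate 4 (triangle). In all 24 genes both Ep1 values lie outside the 4 control values, which the rule for naming them required, and Ttr and Sostdc1 show the widest gap between the Ep1 libraries.

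The largest falls were in genes of striatal neurons, choroid plexus, microglia and brain vessels. Drd2, the dopamine D2 receptor gene of indirect-pathway striatal neurons, read 7.52, 5.96, 6.78 and 7.34 FPKM in Ctrl and 0.5505 and 0.898 FPKM in Ep1, so that the mean control was 9.52 times the mean of Ep1 (log2 change -2.20 ± 0.12 SE, limma adjusted p = 0.000295). Gkn3, a gastrokine gene that marks arterial endothelium in mouse brain, read 4.99, 5.36, 5.84 and 6.65 FPKM in Ctrl and 0.546 and 0.786 FPKM in Ep1 (log2 change -2.01 ± 0.12 SE, limma adjusted p = 0.000347). Slco1a4, an organic anion transporter gene of brain endothelium (ENSMUSG00000030237, chromosome 6, 141805440 to 141856199), read 9.99, 10.3, 10.96 and 9.97 FPKM in Ctrl and 2.71 and 1.97 FPKM in Ep1 (log2 change -1.77 ± 0.10 SE, limma adjusted p = 0.000309). All 3 fell below every control in both Ep1 libraries and stayed called whichever library was left out. P2ry12, the ADP receptor gene that defines resting microglia, went from 11.9, 12.1, 17.8 and 12.9 FPKM to 4.13 and 2.91 FPKM, with Ctrl 3 the highest control. Lrrc10b, which encodes a leucine-rich repeat protein, went from 13.2, 13.2, 8.57 and 12.04 FPKM to 2.31 and 2.496 FPKM, and Pcdh20, a protocadherin gene, from 6.598, 6.09, 5.48 and 4.89 FPKM to 1.31 and 1.04 FPKM. The organic anion transporter gene Slc22a8 went from 7.13, 6.83, 8.12 and 7.51 FPKM to 2.05 and 1.53 FPKM. These 4 genes stayed called whichever library was left out, with the weakest adjusted p among them 0.0354 in limma, for P2ry12 without Ep1 4. Adora2a, Gpr6 and Syndig1l are described with the striatal genes. Ttr, the thyroxine carrier made in bulk by the choroid plexus, had the largest fall among the named genes (log2 change -3.27 ± 0.86 SE, limma adjusted p = 0.0402), with 684, 701, 418 and 367 FPKM in Ctrl and 16.01 and 172 FPKM in Ep1. It was called with all 6 libraries and lost without Ctrl 1 (limma adjusted p = 0.0876), without Ctrl 2 (limma adjusted p = 0.09), without Ctrl 3 (limma adjusted p = 0.0736), without Ctrl 4 (limma adjusted p = 0.0664) and without Ep1 3 (limma adjusted p = 0.0806). Sostdc1, an antagonist of BMP and Wnt ligands, read 6.77, 6.25, 4.26 and 3.33 FPKM in Ctrl and 0.0984 and 1.398 FPKM in Ep1 and was lost without Ep1 3 (limma adjusted p = 0.0798).

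Heat shock genes rose in part. HSF1, the heat shock factor, is known to bind repeated short units in the promoters of chaperone genes. Of 23 tested members of the heat shock list, 8 were higher and 0 lower, against 13.2% and 8.59% of all tested genes. Their median log2 change was 0.23 against 0.02 for all tested genes. Hspa1b, an inducible Hsp70 gene, read 2.203, 2.395, 1.71 and 2.603 FPKM in Ctrl and 20.6 and 27.3 FPKM in Ep1 (log2 change 2.94 ± 0.15 SE, limma adjusted p = 0.000245). Its neighbour and near copy Hspa1a read 2.55, 1.91, 1.11 and 1.499 FPKM in Ctrl and 12.9 and 20.2 FPKM in Ep1 (log2 change 2.66 ± 0.24 SE, limma adjusted p = 0.00136). The small heat shock protein gene Hspb1 read 4.14, 4.34, 3.93 and 2.19 FPKM in Ctrl and 14.8 and 19.5 FPKM in Ep1 (log2 change 1.98 ± 0.23 SE, limma adjusted p = 0.00317). In all 3 genes the Ep1 values lay above every control, and Ep1 4 above Ep1 3. Hsph1, a Hsp110 gene that helps Hsp70 release its client proteins, read 36.998, 37.3, 41.8 and 39.7 FPKM in Ctrl and 60.1 and 64.7 FPKM in Ep1, a smaller rise (log2 change 0.67 ± 0.08 SE, limma adjusted p = 0.003). The list count was 4 without Ep1 4.

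The 250 bases before the transcription start of Hspa1a, Hspa1b and Hspb1 are printed because these 3 carry the heat shock unit GAANNTTC, searched on both strands, among the higher members of the list. They were taken from RefSeq on GRCm38.p6, 5′ to 3′ on the strand of the gene, with matches in capitals: Hspa1a (chr17:34972157-34972406, minus strand), Hspa1b (chr17:34959239-34959488, minus strand) and Hspb1 (chr5:135887669-135887918, plus strand).
Hspa1a: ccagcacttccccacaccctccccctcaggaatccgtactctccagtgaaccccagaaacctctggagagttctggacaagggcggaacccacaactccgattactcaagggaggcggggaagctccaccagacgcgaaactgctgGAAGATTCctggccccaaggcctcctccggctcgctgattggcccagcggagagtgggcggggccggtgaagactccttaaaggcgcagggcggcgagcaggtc
Hspa1b: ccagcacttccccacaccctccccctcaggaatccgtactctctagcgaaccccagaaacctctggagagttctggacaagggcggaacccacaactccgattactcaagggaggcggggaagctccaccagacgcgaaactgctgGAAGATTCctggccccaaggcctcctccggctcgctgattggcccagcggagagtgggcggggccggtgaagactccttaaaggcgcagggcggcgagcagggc
Hspb1: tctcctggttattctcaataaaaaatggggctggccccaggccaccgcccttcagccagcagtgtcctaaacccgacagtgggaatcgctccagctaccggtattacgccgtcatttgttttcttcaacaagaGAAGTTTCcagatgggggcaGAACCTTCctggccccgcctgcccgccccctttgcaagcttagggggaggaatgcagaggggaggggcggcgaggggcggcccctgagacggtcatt
The match began 104 bases before the start in both Hspa1a and Hspa1b, and 117 and 97 bases before the start in Hspb1. The upstream sequences of Hspa1a and Hspa1b were identical at 247 of 250 bases (98.8%). The unit was present in 3 of the 7 higher members with a promoter in the table, in 3 of the 12 other listed members with a promoter and in 6.78% of 27025 promoters. A match is a description of the letters and was not tested as a binding site.

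Genes of haem breakdown, antioxidant defence and metal binding rose in small numbers. Of 13 tested genes of haem breakdown and iron storage 4 were higher and 0 lower (median 0.24), and of 21 NRF2 antioxidant and glutathione genes 5 were higher and 0 lower (median 0.16). Among all tested genes 13.2% were higher and 8.59% lower. Beside Hmox1, the ferroxidase gene Cp went from 0.869, 0.936, 1.12 and 0.843 FPKM to 1.94 and 2.38 FPKM and the biliverdin reductase gene Blvrb from 3.13, 3.0999, 2.95 and 3.18 FPKM to 5.12 and 4.64 FPKM. Cp lost its call without Ep1 4 (limma adjusted p = 0.0839), and Blvrb without Ep1 3 (limma adjusted p = 0.0507). Srxn1, which reduces overoxidised peroxiredoxins, read 28.3, 27.5, 28.3 and 29.3 FPKM in Ctrl and 57.8 and 64.5 FPKM in Ep1 (log2 change 1.08 ± 0.07 SE, limma adjusted p = 0.000414). Gclc, the catalytic subunit of glutathione synthesis, went from 16.4, 16.2, 19.7 and 16.6 FPKM to 26.5 and 25.1 FPKM and lost its call without Ep1 3 (limma adjusted p = 0.0751) and without Ep1 4 (limma adjusted p = 0.0717). Among the 3 metallothionein genes, whose products bind zinc and copper, Mt1 rose from 119, 129.8, 137 and 113 FPKM to 305 and 297 FPKM (log2 change 1.27 ± 0.10 SE, limma adjusted p = 0.000658). Mt2, at 2.36, 2.23, 0 and 0.807 FPKM in Ctrl and 4.57 and 4.35 FPKM in Ep1, did not pass (limma adjusted p = 0.0939). The count of haem and iron genes was 2 without Ep1 3 and 2 without Ep1 4, and that of NRF2 genes 3 without Ctrl 1, 3 without Ctrl 2, 2 without Ep1 3 and 1 without Ep1 4.

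Stress genes of protein folding and growth arrest moved in a larger share. Of 23 tested genes of the unfolded protein and integrated stress response 12 were higher and 0 lower (median 0.31). Of the 23, 1 entered the test only through the 20 J/cm2 group, in which it is high. Atf3, a stress-induced transcription factor gene, read 0.295, 0.279, 0.0294 and 0.1102 FPKM in Ctrl and 2.902 and 5.47 FPKM in Ep1 (log2 change 2.10 ± 0.22 SE, limma adjusted p = 0.00197). Ddit3, which encodes the transcription factor CHOP, read 11.8, 11.2, 9.303 and 12.5 FPKM in Ctrl and 24.1 and 23.1 FPKM in Ep1 (log2 change 1.02 ± 0.11 SE, limma adjusted p = 0.00247). Sdf2l1, an endoplasmic reticulum chaperone partner, read 7.19, 8.08, 6.68 and 9.15 FPKM in Ctrl and 15.5 and 15.3 FPKM in Ep1. The 3 genes lay above every control in both Ep1 libraries. Atf4, the transcription factor at the centre of the integrated stress response, went from 34.04, 34.9, 28.5 and 35.2 FPKM to 57.4 and 60.9 FPKM and lost its call only without Ep1 4 (limma adjusted p = 0.0504). Of 19 p53 target and growth arrest genes 10 were higher and 1 lower (median 0.28). Of the 19, 2 entered the test only through the 20 J/cm2 group, in which they are high. With no filter on low values 9 were higher and 0 lower. Gadd45b, a stress sensor gene, read 6.17, 5.46, 7.04 and 4.82 FPKM in Ctrl and 29.7 and 42.2 FPKM in Ep1 (log2 change 2.42 ± 0.17 SE, limma adjusted p = 0.00058), and its relative Gadd45g 10.8, 12.7, 7.98 and 9.204 FPKM and 28.3 and 42.3 FPKM. Pmaip1, which encodes the pro-apoptotic protein NOXA, went from 0.401, 0.519, 0.8101 and 0.651 FPKM to 2.93 and 3.03 FPKM. The single member lower than Ctrl was Btg2, an antiproliferative gene named after its values were seen, at 8.98, 9.79, 9.15 and 10.6 FPKM in Ctrl and 7.03 and 7.85 FPKM in Ep1 (log2 change -0.33 ± 0.09 SE, limma adjusted p = 0.0354), and its call was kept only without Ctrl 3. The count of stress response genes was 7 without Ep1 3 and 3 without Ep1 4. That of p53 target genes was 5 higher and 0 lower without Ep1 3 and 4 higher and 0 lower without Ep1 4. Of 35 proteasome subunit genes 2, Psmb3 and Psmd4, were higher, a share below the 13.2% of all genes, and the count was 0 without Ctrl 1, 0 without Ctrl 2, 11 without Ctrl 3, 1 without Ctrl 4, 0 without Ep1 3 and 0 without Ep1 4.

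Immediate early genes, which neurons and other cells switch on within minutes of a signal, rose in part. Of 23 tested members 14 were higher and 1 lower, with a median log2 change of 0.79. Of the 23, 1 entered the test only through the 20 J/cm2 group, in which it is high. Egr3, a zinc finger factor gene of neuronal activity, read 26.6, 24.96, 29.3 and 29.7 FPKM in Ctrl and 81.6 and 89.2 FPKM in Ep1 (log2 change 1.60 ± 0.09 SE, limma adjusted p = 0.000315). Fosb, a partner gene of the AP-1 complex, read 2.35, 2.37, 1.78 and 2.26 FPKM in Ctrl and 12.03 and 19.9 FPKM in Ep1 (log2 change 2.38 ± 0.19 SE, limma adjusted p = 0.000744). Ier3, an early response gene with a role in cell survival, read 3.78, 4.39, 4.31 and 4.67 FPKM in Ctrl and 17.5 and 20.2 FPKM in Ep1 (log2 change 1.91 ± 0.09 SE, limma adjusted p = 0.000245). All 4 controls lay close together in each of these genes and below both Ep1 libraries. Maff, a small MAF factor gene, went from 0.645, 0.505, 0.439 and 0.366 FPKM to 6.17 and 9.44 FPKM. Fos itself, chosen after its values were seen, read 9.62, 10.03, 10.2 and 10.1 FPKM in Ctrl and 18.3 and 26.6 FPKM in Ep1 (log2 change 1.07 ± 0.14 SE, limma adjusted p = 0.00384). The lower member was Nr4a2, an orphan nuclear receptor gene named after its values were seen, at 9.397, 9.21, 5.14 and 6.08 FPKM in Ctrl and 2.101 and 4.18 FPKM in Ep1 (limma adjusted p = 0.0496), a call kept only without Ctrl 3. The list count was 7 higher and 0 lower without Ep1 4. Of 10 dual-specificity phosphatase genes, whose products switch off MAP kinases, 3 were higher, against 13.2% of all tested genes. Dusp5 led these phosphatase genes, at 3.64, 3.64, 3.503 and 3.55 FPKM in Ctrl and 11.9 and 13.3 FPKM in Ep1 (log2 change 1.57 ± 0.07 SE, limma adjusted p = 0.000245). The count of these was 5 higher and 2 lower without Ctrl 3 and 1 without Ep1 4. Dusp1 did not pass, at 12.4, 13.1, 12.7 and 13.9 FPKM in Ctrl and 14.8 and 17.6 FPKM in Ep1 (limma adjusted p = 0.0588).

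Secreted neuronal genes that follow activity divided by gene. Of 21 tested 8 were higher and 2 lower (median 0.37), against 13.2% and 8.59% of all tested genes. Nptx1, the pentraxin related to Nptx2, read 85.8, 82.4, 72.8 and 83.3 FPKM in Ctrl and 149 and 159.5 FPKM in Ep1 (log2 change 0.92 ± 0.09 SE, limma adjusted p = 0.00139). Crh, the gene of corticotropin-releasing hormone, went from 3.19, 3.23, 2.78 and 3.33 FPKM to 5.71 and 5.56 FPKM. Penk, the enkephalin precursor gene, moved the other way, from 44.6, 45.1, 47.3 and 51.9 FPKM to 19.02 and 21.7 FPKM (log2 change -1.18 ± 0.09 SE, limma adjusted p = 0.000681). The Ep1 values of Nptx1 and Crh lay above all controls, and those of Penk below all of them. Tac1, the substance P precursor gene, was named after its values were seen as the other lower member (3.85, 3.81, 6.53 and 4.49 FPKM in Ctrl and 2.11 and 2.53 FPKM in Ep1), and its call was lost without Ctrl 4, Ep1 3 or Ep1 4. Both Penk and Tac1 are also neuropeptide genes of striatal neurons. The count was 4 higher and 1 lower without Ep1 4.

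Striatal projection neurons are the main neurons of caudate and putamen. Among the 44 lists, chosen with earlier results of these data known, their list had the largest share of lower calls. Of 18 tested members 14 were lower and 0 higher, against 8.59% and 13.2% of all tested genes, with a median log2 change of -1.01. Of the 18, 2 entered the test only through Ctrl, the group in which they are high. With no filter on low values 10 were lower. Gpr6, an orphan receptor gene of indirect-pathway neurons, read 4.46, 4.58, 3.89 and 4.72 FPKM in Ctrl and 0.3598 and 0.603 FPKM in Ep1 (log2 change -1.87 ± 0.11 SE, limma adjusted p = 0.000309). Adora2a, an adenosine receptor gene of the same neurons, read 10.6, 9.06, 7.89 and 10.2 FPKM in Ctrl and 1.98 and 2.55 FPKM in Ep1 (log2 change -1.67 ± 0.13 SE, limma adjusted p = 0.000703). Syndig1l, a gene enriched in caudate and putamen, read 8.34, 7.48, 5.65 and 8.36 FPKM in Ctrl and 1.25 and 1.29 FPKM in Ep1. These 3 genes and Drd2 fell below every control in both Ep1 libraries, and all 4 stayed called whichever library was left out. Drd1, the receptor gene of the direct pathway, chosen after its values were seen, went from 4.06, 4.83, 5.84 and 4.97 FPKM to 1.05 and 1.76 FPKM (log2 change -1.31 ± 0.16 SE, limma adjusted p = 0.00337). The list count was 8 without Ep1 3 and 9 without Ep1 4. General neuron markers gave few calls. Of 14 tested neuron markers 0 were higher and 0 lower with all 6 libraries, their summed level was 2073 to 2288 FPKM in Ctrl and 2047 and 2092 FPKM in Ep1 3 and 4, and Camk2a read 419 and 459 FPKM in Ep1 (limma adjusted p = 0.952). Quantile normalization, scaling without mitochondrial genes and voom each gave 2 lower neuron markers, and the fit without Ctrl 3 gave 1 higher and 3 lower. The part that the share of striatum in each sample had in these values was not tested.

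Receptor and channel genes changed by less. Of 22 genes for AMPA, NMDA and GABA-A receptor subunits 11 were lower and 0 higher (median -0.33). Gabrb2, a beta subunit of the GABA-A receptor, read 24.3, 24.7, 30.3 and 24.7 FPKM in Ctrl and 14.1 and 14.3 FPKM in Ep1, with Ctrl 3 the highest control (log2 change -0.82 ± 0.10 SE, limma adjusted p = 0.00348). Grin3a, an NMDA receptor subunit gene, read 3.21, 3.13, 3.24 and 3.03 FPKM in Ctrl and 1.71 and 2.08 FPKM in Ep1, and lost its call only without Ep1 3 (limma adjusted p = 0.0628). The receptor count was 5 without Ctrl 1, 5 without Ctrl 2, 4 without Ctrl 4, 1 without Ep1 3 and 2 without Ep1 4, and 4 with no filter on low values. Voltage-gated potassium channel genes moved both ways, with 5 of 27 higher and 7 lower (median -0.06), against 13.2% and 8.59% of all tested genes. Kcna4 fell from 4.67, 4.303, 4.97 and 4.46 FPKM to 2.13 and 2.02 FPKM (log2 change -0.86 ± 0.08 SE, limma adjusted p = 0.00126), and Kcnd3 rose from 6.62, 6.48, 7.55 and 6.89 FPKM to 11.1 and 12.3 FPKM (log2 change 0.69 ± 0.08 SE, limma adjusted p = 0.00308). Both encode channels of the transient A-type current, and both kept their calls whichever library was left out. The channel counts were 2 higher and 4 lower without Ctrl 2, 2 higher and 1 lower without Ep1 3 and 1 higher and 1 lower without Ep1 4, 2 higher and 5 lower with no filter, and 2 higher and 8 lower with quantile normalization. Of 24 synaptic vesicle and release genes 1 was lower, the active zone gene Pclo (13.7, 13.7, 16.9 and 14.2 FPKM in Ctrl and 8.97 and 9.78 FPKM in Ep1), against 8.59% of all genes. Pclo lost its call without Ep1 3 (limma adjusted p = 0.0783) and without Ep1 4 (limma adjusted p = 0.0675). Between 0 and 4 of them were lower under the alternatives, with 4 without Ctrl 3.

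Glucocorticoid response genes, switched on by the stress hormone receptor in many tissues, rose in a large share. Of 18 tested members 14 were higher and 0 lower, with a median log2 change of 0.81, and no member had a negative change. Leaving out any 1 library moved the count by less than 1.5 times. Fkbp5, a co-chaperone gene that dampens the receptor, read 2.596, 2.58, 2.44 and 2.96 FPKM in Ctrl and 12.4 and 10.4 FPKM in Ep1 (log2 change 1.76 ± 0.10 SE, limma adjusted p = 0.000295). Map3k6, a stress kinase gene, read 0.389, 0.451, 0.261 and 0.412 FPKM in Ctrl and 3.71 and 3.67 FPKM in Ep1 (log2 change 1.77 ± 0.11 SE, limma adjusted p = 0.000347). Errfi1, an inhibitor of the EGF receptor, read 8.44, 7.88, 8.403 and 7.83 FPKM in Ctrl and 17.1 and 19.03 FPKM in Ep1 (log2 change 1.06 ± 0.07 SE, limma adjusted p = 0.000437). In each the Ep1 pair lay well above all 4 controls, and in Fkbp5 Ep1 3 was the higher of the pair. 4 of the 18 members reached 1 FPKM only at 20 J/cm2 and so entered the test through the group in which they are high. Genes of the circadian clock went both ways, with 5 of 19 higher and 2 lower (median 0.02). Among all tested genes 13.2% were higher and 8.59% lower, with a median that also rounds to 0.02. The repressor gene Cry1 rose from 6.63, 6.01, 5.396 and 5.36 FPKM to 12.5 and 12.5 FPKM (log2 change 0.98 ± 0.09 SE, limma adjusted p = 0.0013), and the nuclear receptor genes Nr1d2 (from 27.9, 27.01, 29.7 and 27.1 FPKM to 19.1 and 17.4 FPKM) and Rorb (from 4.72, 4.87, 5.67 and 4.78 FPKM to 2.69 and 2.72 FPKM) fell. These 3 stayed called whichever library was left out, while the clock count was 1 higher and 2 lower without Ep1 4. Quantile normalization gave 4 higher and 6 lower clock genes, and voom weights 5 and 6.

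Many chemokine, cytokine and NF-kB feedback genes rose. Of 16 tested chemokine and cytokine genes 9 were higher and 1 lower (median 0.43), against 13.2% and 8.59% of all tested genes. Of the 16, 6 passed the filter only through the 20 J/cm2 group. With the filter on the mean of all libraries 6 were higher. Ccl3, a chemokine gene close to Ccl4, read 0.0753, 0.143, 0 and 0.155 FPKM in Ctrl and 4.12 and 5.18 FPKM in Ep1 (log2 change 2.37 ± 0.13 SE, limma adjusted p = 0.000295). Ccl12, a monocyte chemokine gene of the mouse, read 0.322, 0.102, 0.353 and 0.331 FPKM in Ctrl and 3.48 and 2.88 FPKM in Ep1 (log2 change 1.71 ± 0.14 SE, limma adjusted p = 0.000757). Cxcl12, a chemokine gene that brain endothelium and other cells express at rest, was the member that fell, from 7.83, 7.49, 6.98 and 7.75 FPKM to 3.72 and 3.96 FPKM (log2 change -0.81 ± 0.07 SE, limma adjusted p = 0.00111). All 3 had no overlap between groups and stayed called whichever library was left out. The count was 4 higher and 1 lower without Ep1 4. Of 27 NF-kB feedback, STAT3 and acute phase genes 23 were higher and 0 lower (median 0.88). 12 of the 27 entered only through the 20 J/cm2 group, in which they are high, and with the filter on the mean of all libraries 17 were higher. Bcl3, an IkB relative in the nucleus, read 0.233, 0.0882, 0.0511 and 0.144 FPKM in Ctrl and 2.62 and 2.83 FPKM in Ep1 (log2 change 1.72 ± 0.12 SE, limma adjusted p = 0.00058). Timp1, a metalloproteinase inhibitor gene, read 1.82, 1.41, 1.85 and 1.804 FPKM in Ctrl and 6.97 and 9.17 FPKM in Ep1 (log2 change 1.73 ± 0.13 SE, limma adjusted p = 0.00058). Lcn2, the acute phase gene of lipocalin 2, read 0.02200, 0.0832, 0.0964 and 0.0226 FPKM in Ctrl and 2.14 and 2.64 FPKM in Ep1 (log2 change 1.68 ± 0.13 SE, limma adjusted p = 0.000679). Like Socs3 above, these 3 were higher in both Ep1 libraries than in any control and stayed called whichever library was left out. The list count was 14 without Ep1 3 and 13 without Ep1 4.

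The upstream sequences of Nfkbia, which encodes the inhibitor IkB-alpha, and Tnfaip3, which encodes the ubiquitin editor A20, are printed because both genes are known feedback targets of NF-kB and hold the kappaB consensus in capitals. Both were chosen after their values were seen. Nfkbia read 11.5, 10.8, 10.4 and 9.43 FPKM in Ctrl and 16.5 and 16.4 FPKM in Ep1 (log2 change 0.60 ± 0.08 SE, limma adjusted p = 0.00552), and Tnfaip3 read 0.671, 0.589, 0.578 and 0.755 FPKM in Ctrl and 1.59 and 1.55 FPKM in Ep1 (log2 change 0.64 ± 0.11 SE, limma adjusted p = 0.00892). Nfkbia lost its call without Ep1 4 and Tnfaip3 without either Ep1 library. The windows are again 250 bases of RefSeq on GRCm38.p6, on the strand of the gene: Nfkbia (chr12:55492648-55492897, minus strand) and Tnfaip3 (chr10:19015411-19015660, minus strand).
Nfkbia: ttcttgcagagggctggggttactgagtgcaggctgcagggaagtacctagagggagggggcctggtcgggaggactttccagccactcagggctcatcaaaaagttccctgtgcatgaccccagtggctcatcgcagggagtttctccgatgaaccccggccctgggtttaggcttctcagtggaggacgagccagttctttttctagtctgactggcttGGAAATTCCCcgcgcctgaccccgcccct
Tnfaip3: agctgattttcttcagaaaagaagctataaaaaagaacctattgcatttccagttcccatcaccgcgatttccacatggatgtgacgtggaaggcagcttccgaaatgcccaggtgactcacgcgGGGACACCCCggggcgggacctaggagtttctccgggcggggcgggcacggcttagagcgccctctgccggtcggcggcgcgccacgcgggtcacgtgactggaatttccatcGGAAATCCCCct
The match began 29 bases before the start in Nfkbia, and 125 and 12 bases before it in Tnfaip3. The consensus was present in 6 of the 19 higher members with a promoter in the table and in 3.75% of 27025 promoters. Those 6 were Nfkbia, Nfkbie, Nfkb2, Rel, Tnfaip3 and Tlr2. It was in 0 of the 7 other listed members with a promoter. Of the 34 listed genes 27 were tested and 4 of those not called, so these other members include untested genes. In all, 10 motifs were searched in 8 lists, on both strands. Among immediate early genes with a promoter in the table, the AP-1 site TGANTCA (6.87% of all promoters) and the cAMP response element TGACGTCA (1.62%) were in 0 of 10 higher and 0 of 9 other members, and the CArG box (1.40%) in 0 of 10 and 1 of 9. The antioxidant element TGACNNNGC (10.1%) was in 0 of 4 higher and 5 of 14 other NRF2 genes, and the glucocorticoid receptor half-site AGAACA (16.2%) in 1 of 13 higher and 1 of 4 other glucocorticoid genes. The sterol element TCACCCCAC (0.466%) was in 1 of 5 higher and 0 of 16 other cholesterol genes. The metal element TGCNCNC (43.8%) was in all 3 metallothionein promoters, and the hypoxia core NCGTG (55.4%) in 9 of 9 higher and 20 of 21 other glycolysis genes.

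Interferon-stimulated and MHC class I genes rose in part: 6 of 17 were higher and 0 lower (median 0.19), against 13.2% and 8.59% of all tested genes. Of the 17, 2 entered the test only through the 20 J/cm2 group and 1 only through Ctrl. H2-D1, an MHC class I heavy chain gene, read 8.77, 8.44, 7.01 and 8.19 FPKM in Ctrl and 11.5 and 12.996 FPKM in Ep1 (log2 change 0.54 ± 0.10 SE, limma adjusted p = 0.0122). Ifitm3, an antiviral membrane protein gene, read 12.7, 11.7, 10.4 and 9.62 FPKM in Ctrl and 16.97 and 18.6 FPKM in Ep1 (log2 change 0.64 ± 0.11 SE, limma adjusted p = 0.0106). Both lost their calls without either Ep1 library, H2-D1 without Ep1 3 (limma adjusted p = 0.0522) and without Ep1 4 (limma adjusted p = 0.114) and Ifitm3 without Ep1 3 (limma adjusted p = 0.0593) and without Ep1 4 (limma adjusted p = 0.103). The count was 2 without Ctrl 1, 3 without Ctrl 2, 3 without Ctrl 4, 0 without Ep1 3 and 0 without Ep1 4, and 2 with no filter. Neutrophil and monocyte markers stood at very low levels. 2 of 13 reached a mean of 1 FPKM, both only through the 20 J/cm2 group, so that their higher calls were favoured by the filter: S100a8 at 0, 0.236, 0.364 and 0.171 FPKM in Ctrl and 1.35 and 2.91 FPKM in Ep1, and S100a9 at 0.111, 0, 0.363 and 0 FPKM in Ctrl and 2.13 and 8.25 FPKM in Ep1. Ep1 4 was the higher of the 20 J/cm2 pair for both. The summed level of the list was 0.521 to 1.46 FPKM in Ctrl and 4.74 and 13.8 FPKM in Ep1 3 and 4, and the neutrophil markers Ly6g and Cxcr2 were at 0 in all 4 controls. S100a8 lost its call without Ep1 4 (limma adjusted p = 0.0731). The part of such cells in the inflammatory genes was not tested.

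Genes of the vessel wall moved in both directions. Of 20 tested endothelial markers 10 were higher and 6 lower (median 0.33), against 13.2% and 8.59% of all tested genes. Their summed level was 323 to 345 FPKM in Ctrl and 340.4 and 342 FPKM in Ep1. Cdh5, the cadherin of endothelial adherens junctions (ENSMUSG00000031871, chromosome 8, 104101625 to 104144511), read 3.08, 3.36, 3.01 and 2.85 FPKM in Ctrl and 12.1 and 13.8 FPKM in Ep1, 4.201 times the mean control (log2 change 1.77 ± 0.08 SE, limma adjusted p = 0.000245). Pecam1, an adhesion gene of endothelial contacts, read 2.696, 2.74, 2.53 and 2.08 FPKM in Ctrl and 6.58 and 6.95 FPKM in Ep1 (log2 change 1.15 ± 0.10 SE, limma adjusted p = 0.00108). Cldn5 (ENSMUSG00000041378, chromosome 16, 18776847 to 18778262), the claudin that seals brain capillaries, read 24.3, 22.8, 16.2 and 21.03 FPKM in Ctrl and 38.4 and 37.4 FPKM in Ep1 (log2 change 0.83 ± 0.15 SE, limma adjusted p = 0.012). In all 3 the Ep1 values lay above the controls, and Ctrl 3 was the lowest control for Cldn5. Cldn5 lost its call without Ep1 3 (limma adjusted p = 0.0858) and without Ep1 4 (limma adjusted p = 0.0952), where Cdh5 and Pecam1 kept theirs. Adgrl4, an adhesion receptor gene of endothelial cells, rose from 2.32, 2.55, 2.47 and 2.16 FPKM to 6.56 and 6.82 FPKM (log2 change 1.19 ± 0.08 SE, limma adjusted p = 0.000437). Itm2a, a membrane protein gene strong in brain endothelium, fell from 24.7, 24.5, 26.1 and 27.9 FPKM to 9.65 and 11.2 FPKM (log2 change -1.23 ± 0.09 SE, limma adjusted p = 0.000541). The endothelial marker counts were 6 higher and 4 lower without Ep1 3 and 4 higher and 4 lower without Ep1 4. Of 18 tight and adherens junction genes 6 were higher and 2 lower (median 0.07), the lower count near the 8.59% of all tested genes. Esam went from 7.16, 7.04, 6.396 and 7.45 FPKM to 10.1 and 11.8 FPKM. Cdh2, the neural cadherin gene, fell from 11.7, 11.2, 11.7 and 12.2 FPKM to 8.04 and 9.14 FPKM. Esam lost its call without Ep1 4 (limma adjusted p = 0.072) and Cdh2 without Ep1 3 (limma adjusted p = 0.0843). The junction counts were 4 higher and 0 lower without Ep1 3 and 2 higher and 1 lower without Ep1 4.

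Blood-brain barrier transporter genes divided evenly, with 8 of 24 higher and 8 lower (median -0.12), against 13.2% and 8.59% of all tested genes. Of the 24, 2 entered the test only through Ctrl. Slco1a4 and Slc22a8, described above, were among the lower members. The creatine transporter gene Slc6a8 rose from 26.4, 25.02, 22.5 and 24.97 FPKM to 43.5 and 44.4 FPKM (log2 change 0.81 ± 0.08 SE, limma adjusted p = 0.00142). Abcb1a, the efflux pump P-glycoprotein, and Slc2a1, the glucose transporter, were chosen after their values were seen. Abcb1a read 6.42, 6.55, 5.99 and 6.29 FPKM in Ctrl and 3.46 and 3.65 FPKM in Ep1 (log2 change -0.68 ± 0.07 SE, limma adjusted p = 0.00162), and Slc2a1 read 31.2, 30.3, 26.8 and 26.6 FPKM in Ctrl and 49.2 and 53.9 FPKM in Ep1 (log2 change 0.82 ± 0.09 SE, limma adjusted p = 0.00253). The higher members were thus carriers of glucose and creatine and the lower members carriers of organic anions and drugs, as far as the named genes go. These 3 transporter genes and Slco1a4 and Slc22a8 stayed called whichever library was left out, while the counts were 3 higher and 5 lower without Ep1 4. Of 17 caveola and transcytosis genes 6 were higher and 0 lower (median 0.28). Cavin1, a coat protein gene of caveolae, read 4.99, 5.25, 3.84 and 4.56 FPKM in Ctrl and 14.8 and 17.7 FPKM in Ep1 (log2 change 1.61 ± 0.12 SE, limma adjusted p = 0.000679), and Ehd2, which stabilises the caveolar neck, 1.56, 1.77, 1.51 and 1.43 FPKM and 3.36 and 4.18 FPKM. The caveola count was 9 higher and 1 lower without Ctrl 3, 2 without Ep1 3 and 2 without Ep1 4. Pericyte and smooth muscle markers had 0 of 9 higher and 2 lower, Rgs5 and Anpep. The pericyte counts were 1 without Ep1 3 and 0 without Ep1 4. Their summed level was 62.9 to 71.5 FPKM in Ctrl and 62.5 and 58.6 FPKM in Ep1, and the part of such shifts in the vessel genes was not tested.

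Angiopoietin, VEGF and Notch genes moved both ways. Of 26 angiopoietin, VEGF and Notch genes tested 11 were higher and 4 lower (median 0.09), where 5 entered only through the 20 J/cm2 group and 4 only through Ctrl. With no filter 8 were higher and 2 lower. Angpt2, the destabilising ligand of the Tie2 receptor, read 0.3597, 0.503, 0.754 and 0.338 FPKM in Ctrl and 4.13 and 5.36 FPKM in Ep1 (log2 change 1.95 ± 0.15 SE, limma adjusted p = 0.000737). Vegfa, the main growth factor gene of vessels, read 20.01, 18.7, 20.03 and 20.7 FPKM in Ctrl and 37.3 and 34.9 FPKM in Ep1 (log2 change 0.83 ± 0.07 SE, limma adjusted p = 0.000838). Apln, the gene of the endothelial peptide apelin, read 8.45, 8.701, 8.17 and 8.48 FPKM in Ctrl and 17.3 and 16.6 FPKM in Ep1 (log2 change 0.92 ± 0.06 SE, limma adjusted p = 0.000414). The ligands named here rose, while Tek, which encodes the Tie2 receptor and was chosen after its values were seen, fell from 2.36, 2.27, 2.71 and 2.76 FPKM to 0.905 and 0.986 FPKM (log2 change -0.86 ± 0.10 SE, limma adjusted p = 0.00273). These 4 and Adm kept their calls whichever library was left out, and the counts were 7 higher and 2 lower without Ctrl 2, 7 higher and 2 lower without Ctrl 4, 5 higher and 1 lower without Ep1 3 and 5 higher and 1 lower without Ep1 4. Of 19 Wnt and beta-catenin genes of brain endothelium 3 were higher and 2 lower (median 0.09), near the 13.2% and 8.59% of all tested genes, and 3 entered only through the 20 J/cm2 group and 1 only through Ctrl. Adgra2, the co-receptor GPR124 of Wnt7 signalling, rose from 3.91, 3.67, 3.21 and 3.18 FPKM to 10.1 and 10.8 FPKM (log2 change 1.35 ± 0.09 SE, limma adjusted p = 0.000443), and Sox7, an endothelial factor gene, from 0.385, 0.563, 0.345 and 0.503 FPKM to 1.88 and 2.203 FPKM. The Wnt counts were 3 higher and 0 lower without Ctrl 1, 3 higher and 0 lower without Ctrl 2, 3 higher and 0 lower without Ctrl 4, 2 higher and 0 lower without Ep1 3 and 2 higher and 0 lower without Ep1 4.

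Some matrix genes rose. Of 22 basement membrane and matrix genes 9 were higher and 0 lower (median 0.18), against 13.2% and 8.59% of all tested genes. Col4a1 and Col4a2, which encode the chains of the main collagen of vascular basement membranes, had the smallest p among them. Col4a1 read 8.55, 7.74, 6.998 and 8.11 FPKM in Ctrl and 22.3 and 24.4 FPKM in Ep1 (log2 change 1.46 ± 0.09 SE, limma adjusted p = 0.000347), and Col4a2 read 12.5, 12.3, 12.5 and 12.3 FPKM in Ctrl and 25.5 and 25.9 FPKM in Ep1 (log2 change 0.99 ± 0.06 SE, limma adjusted p = 0.0003). The controls of Col4a2 lay close together, as did its Ep1 libraries. The matrix count was 5 without Ep1 3 and 2 without Ep1 4. Of 19 matrix protease and inhibitor genes 8 were higher and 2 lower (median 0.27), where 3 entered only through the 20 J/cm2 group and 1 only through Ctrl. Plaur, the urokinase receptor gene, read 0.265, 0.167, 0.193 and 0.295 FPKM in Ctrl and 4.06 and 5.68 FPKM in Ep1 (log2 change 2.24 ± 0.14 SE, limma adjusted p = 0.000389). Plat, the tissue plasminogen activator gene, read 5.46, 5.19, 4.67 and 4.51 FPKM in Ctrl and 11.05 and 11.2 FPKM in Ep1 (log2 change 1.03 ± 0.08 SE, limma adjusted p = 0.000838). The receptor and the activator were thus both higher in both Ep1 libraries than in any control. The protease counts were 5 higher and 1 lower without Ep1 4.

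Genes of mechanosensing and the cytoskeleton rose in large shares. Of 23 mechanosensing, KLF and YAP genes 14 were higher and 0 lower (median 0.45), against 13.2% and 8.59% of all tested genes. Ccn1, a matricellular target gene of YAP, read 3.69, 4.596, 3.98 and 4.82 FPKM in Ctrl and 17.3 and 21.7 FPKM in Ep1 (log2 change 1.95 ± 0.12 SE, limma adjusted p = 0.000414). Flna, the actin crosslinker filamin A, read 15.2, 14.98, 13.3 and 12.4 FPKM in Ctrl and 29.4 and 31.6 FPKM in Ep1 (log2 change 1.08 ± 0.10 SE, limma adjusted p = 0.00118), and Ptk2, the focal adhesion kinase gene, 11.9, 12.1, 12.4 and 12.3 FPKM and 18.6 and 18.8 FPKM. These 3 stayed called whichever library was left out, while the count was 9 without Ctrl 1, 9 without Ctrl 2, 9 without Ctrl 4, 8 without Ep1 3 and 4 without Ep1 4, and 8 with no filter. Of 31 actin and tubulin cytoskeleton genes 14 were higher and 1 lower (median 0.33). Msn, which encodes moesin, a linker of actin to the membrane, read 3.402, 3.48, 3.45 and 3.26 FPKM in Ctrl and 8.06 and 10.1 FPKM in Ep1 (log2 change 1.19 ± 0.09 SE, limma adjusted p = 0.000742). Its relative Ezr read 20.2, 20.3, 16.7 and 20.2 FPKM in Ctrl and 40.4 and 40.1 FPKM in Ep1 (log2 change 1.02 ± 0.09 SE, limma adjusted p = 0.00123), and the non-muscle myosin gene Myh9 9.29, 9.31, 6.87 and 8.83 FPKM and 20.5 and 23.2 FPKM. For Ezr and Myh9 Ctrl 3 was the lowest control. The lower member on the deposited scale was Tuba1a, an alpha-tubulin gene named after its values were seen, at 293, 283, 243 and 293 FPKM in Ctrl and 211 and 201 FPKM in Ep1 (limma adjusted p = 0.0272), a call kept only without Ctrl 3. The cytoskeleton counts were 6 higher and 0 lower without Ep1 4, and 4 were lower without Ctrl 3, 5 with quantile normalization, 3 with scaling without mitochondrial genes and 3 with voom. Of 19 TGF-beta, BMP and Id genes 7 were higher and 2 lower (median 0.23), the lower count near the 8.59% of all tested genes. Smad3, a transducer of TGF-beta, rose from 15.4, 14.9, 15.2 and 16.2 FPKM to 27.1 and 26.1 FPKM (log2 change 0.75 ± 0.06 SE, limma adjusted p = 0.000872), and Id4, an inhibitor of helix-loop-helix factors, fell from 14.98, 15.4, 16.2 and 14.1 FPKM to 9.32 and 9.23 FPKM (log2 change -0.65 ± 0.07 SE, limma adjusted p = 0.00235). The TGF-beta counts were 3 higher and 2 lower without Ctrl 2, 3 higher and 2 lower without Ctrl 4, 4 higher and 1 lower without Ep1 3 and 2 higher and 1 lower without Ep1 4, and 4 higher and 2 lower with no filter.

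Some metabolic genes rose, among them genes of sterol synthesis, glucose uptake and glycolytic control. Of 27 cholesterol and fatty acid synthesis genes 9 were higher and 0 lower (median 0.16), against 13.2% and 8.59% of all tested genes. Mvd, an enzyme gene of the mevalonate pathway, read 10.03, 10.9, 7.76 and 11.1 FPKM in Ctrl and 23.8 and 27.5 FPKM in Ep1 (log2 change 1.29 ± 0.14 SE, limma adjusted p = 0.00246). Its pathway neighbour Pmvk went from 14.6, 14.3, 9.93 and 15.9 FPKM to 28.8 and 29.8 FPKM and lost its call without Ep1 3 (limma adjusted p = 0.0607) and without Ep1 4 (limma adjusted p = 0.0817). The sterol count was 4 without Ctrl 2, 3 without Ep1 3 and 1 without Ep1 4, and 5 with no filter. Of 31 glycolysis and hypoxia-induced genes 10 were higher and 0 lower (median 0.20). Pfkfb3, which makes the activator of phosphofructokinase, read 4.27, 4.13, 5.08 and 5.19 FPKM in Ctrl and 11.9 and 14.3 FPKM in Ep1 (log2 change 1.32 ± 0.11 SE, limma adjusted p = 0.00106). Slc2a3, the neuronal glucose transporter gene, read 20.99, 21.2, 21.9 and 22.9 FPKM in Ctrl and 39.5 and 42.3 FPKM in Ep1 (log2 change 0.88 ± 0.07 SE, limma adjusted p = 0.000699). P4ha1, a collagen prolyl hydroxylase gene, went from 11.3, 11.01, 10.1 and 10.9 FPKM to 16.5 and 16.3 FPKM. These 3 and Mvd stayed called whichever library was left out, and the glycolysis count was 4 without Ep1 3 and 4 without Ep1 4. Of 38 nuclear-encoded respiratory chain genes 1 was higher, Atp5a1 (7.07, 6.76, 7.38 and 7.25 FPKM in Ctrl and 8.16 and 9.94 FPKM in Ep1), a call that was lost without each library but Ctrl 3. Of 13 mitochondrially encoded genes 0 were higher and 0 lower, and 1 was higher without Ctrl 3.

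**Figure D3:**
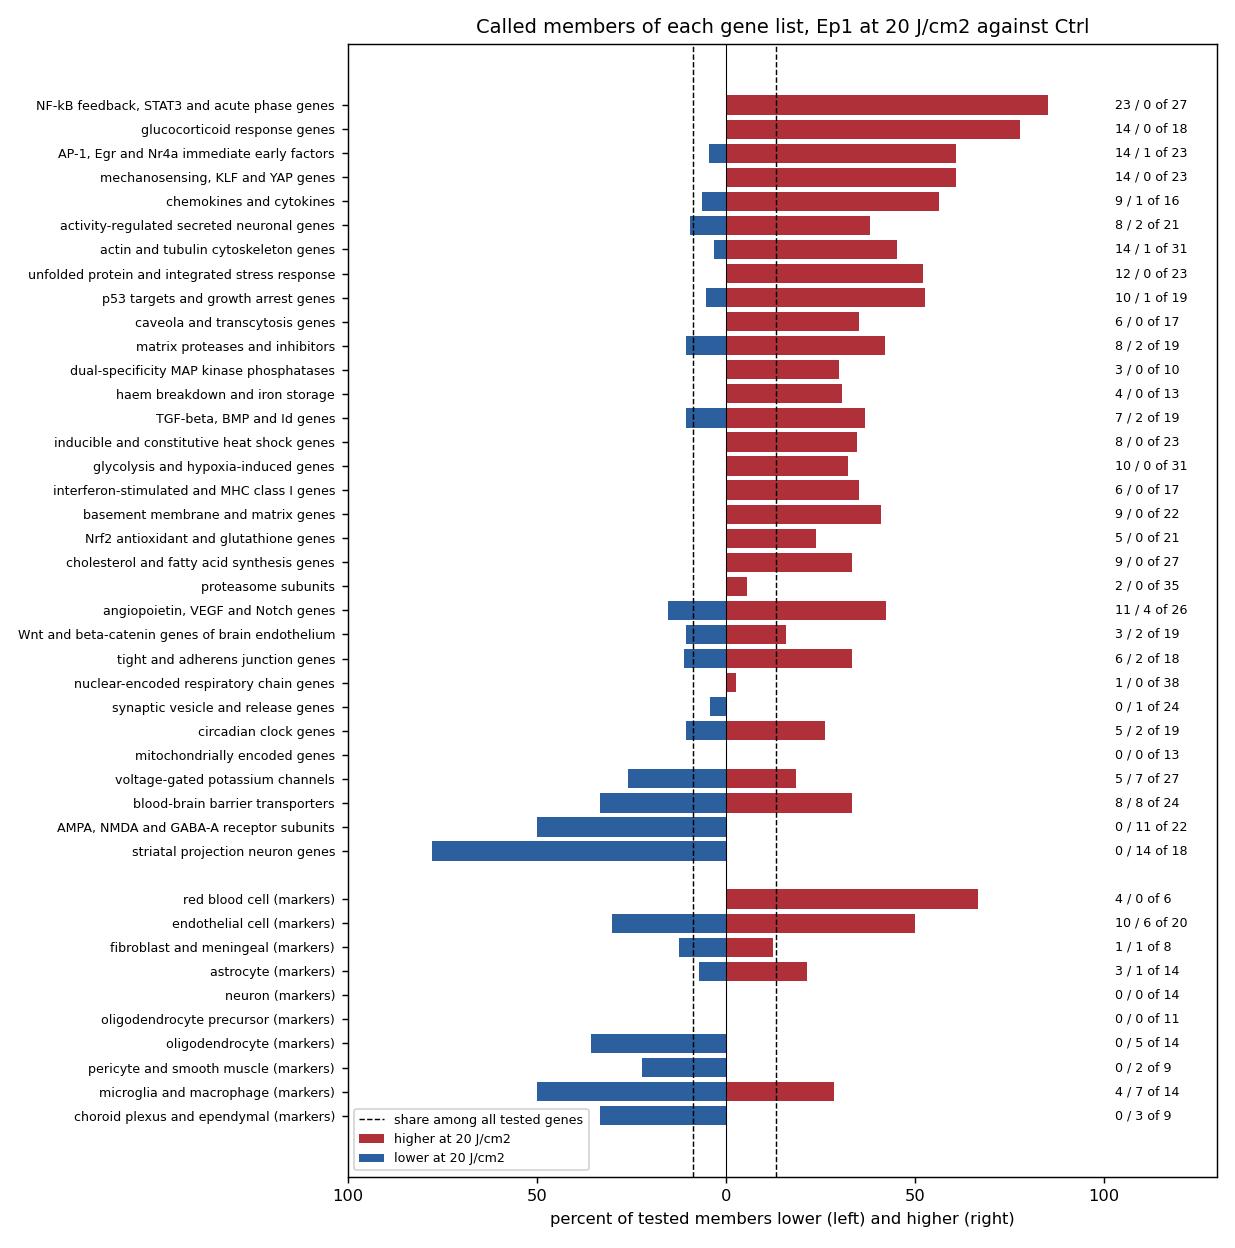
Percent of the tested members of each gene list that were called higher (red, right) or lower (blue, left) at 20 J/cm2, for lists with at least 5 tested members, with marker lists in the lower block and each block ordered by median log2 change. The printed figures are members higher and lower of those tested, and dashed lines mark the shares among all tested genes, 13.2% higher and 8.59% lower. The NF-kB list (23 of 27) and the glucocorticoid list (14 of 18) reach farthest right, with 12 and 4 members that entered only through the 20 J/cm2 group. The striatal list (14 of 18) reaches farthest left, with 2 members that entered only through Ctrl. All lists were chosen with earlier results of these data known.

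Microglia markers moved both ways. Of 14 tested microglia and macrophage markers 4 were higher and 7 lower (median -0.40), with a summed level of 157 to 171 FPKM in Ctrl and 165 and 168 FPKM in Ep1. Tmem119 and P2ry13, markers of resting microglia, fell with P2ry12. Tmem119 went from 9.12, 8.91, 6.86 and 10.1 FPKM to 3.66 and 3.29 FPKM (log2 change -1.12 ± 0.14 SE, limma adjusted p = 0.00365) and P2ry13 from 3.401, 3.71, 4.68 and 4.65 FPKM to 1.57 and 1.54 FPKM. C1qb, a complement gene of microglia chosen after its values were seen, rose from 19.2, 16.8, 13.5 and 18.4 FPKM to 31.2 and 29.5 FPKM (log2 change 0.81 ± 0.14 SE, limma adjusted p = 0.00892). Tmem119 lost its call without Ep1 4 (limma adjusted p = 0.0513), P2ry13 without Ep1 4 (limma adjusted p = 0.0504) and C1qb without either Ep1 library. The microglia counts were 0 higher and 6 lower without Ep1 3 and 0 higher and 2 lower without Ep1 4. Of 14 astrocyte markers 3 were higher and 1 lower, near the shares of all tested genes (13.2% and 8.59%). Gfap, the filament gene of reactive astrocytes, read 39.6, 38.3, 22.5 and 26.2 FPKM in Ctrl and 76.7 and 76.7 FPKM in Ep1, with Ctrl 3 and 4 the lowest (log2 change 1.29 ± 0.24 SE, limma adjusted p = 0.0134), and lost its call without Ep1 3 (limma adjusted p = 0.0812) and without Ep1 4 (limma adjusted p = 0.0975). The astrocyte counts were 0 higher and 0 lower without Ep1 3 and 1 higher and 1 lower without Ep1 4. Of 14 oligodendrocyte markers 0 were higher and 5 lower, with Enpp2, also strong in choroid plexus, going from 71.6, 70.8, 62.04 and 63.3 FPKM to 36.7 and 43.1 FPKM and the myelin lipid enzyme gene Ugt8a from 20.05, 19.3, 18.4 and 16.4 FPKM to 13.1 and 10.6 FPKM. Mbp, the main myelin gene, read 362, 365, 240.0 and 279.5 FPKM in Ctrl and 359 and 282 FPKM in Ep1 and did not pass (limma adjusted p = 0.867). Ugt8a lost its call without Ep1 4 (limma adjusted p = 0.101). The oligodendrocyte count was 3 without Ctrl 1, 3 without Ctrl 2, 2 without Ep1 3 and 1 without Ep1 4, and 3 with no filter. Of 11 oligodendrocyte precursor markers 0 were called in limma on the deposited scale. Quantile normalization gave 1 lower, scaling without mitochondrial genes 2, voom 2 and the fit without Ctrl 3 3. Of 8 fibroblast and meningeal markers 1 was higher, Aldh1a2, and 1 lower, Slc22a6, near the shares of all tested genes (13.2% and 8.59%). The fibroblast counts were 0 higher and 0 lower without Ep1 3 and 1 higher and 0 lower without Ep1 4.

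Some choroid plexus markers fell and some red cell markers rose, with wide spread between libraries of a group. Of 9 tested choroid plexus and ependymal markers 3 were lower, Ttr, Folr1 and Clic6, and 0 higher, against 8.59% and 13.2% of all tested genes. 7 of the 9 were below 1 FPKM at 20 J/cm2 and entered the test only through Ctrl, the group in which they are high. With no filter on low values 0 were lower. Their summed level, nearly all of it Ttr in Ctrl, was 703, 722, 427 and 378 FPKM in Ctrl 1 to 4, 323 and 439.6 FPKM in Ep1 1 and 2 and 20.2 and 179 FPKM in Ep1 3 and 4. Both 20 J/cm2 libraries lay below all controls, and Ep1 3 was the lowest of the 8 libraries. The count was 0 without Ctrl 1, 1 without Ctrl 2, 0 without Ctrl 4 and 0 without Ep1 3. Red cell markers went the other way, with 4 of 6 higher and 0 lower. Their summed level was 88.4, 89.6, 94.5 and 108 FPKM in Ctrl, 265 and 152 FPKM in Ep1 1 and 2 and 200.5 and 360.3 FPKM in Ep1 3 and 4, so that every Ep1 library exceeded every control. The beta-globin gene Hbb-bs read 11.04, 10.7, 10.9 and 15.4 FPKM in Ctrl and 51.7 and 119 FPKM in Ep1 (log2 change 2.63 ± 0.32 SE, limma adjusted p = 0.004). The part that choroid plexus and blood in the samples had in other genes was not tested.

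**Figure D4:**
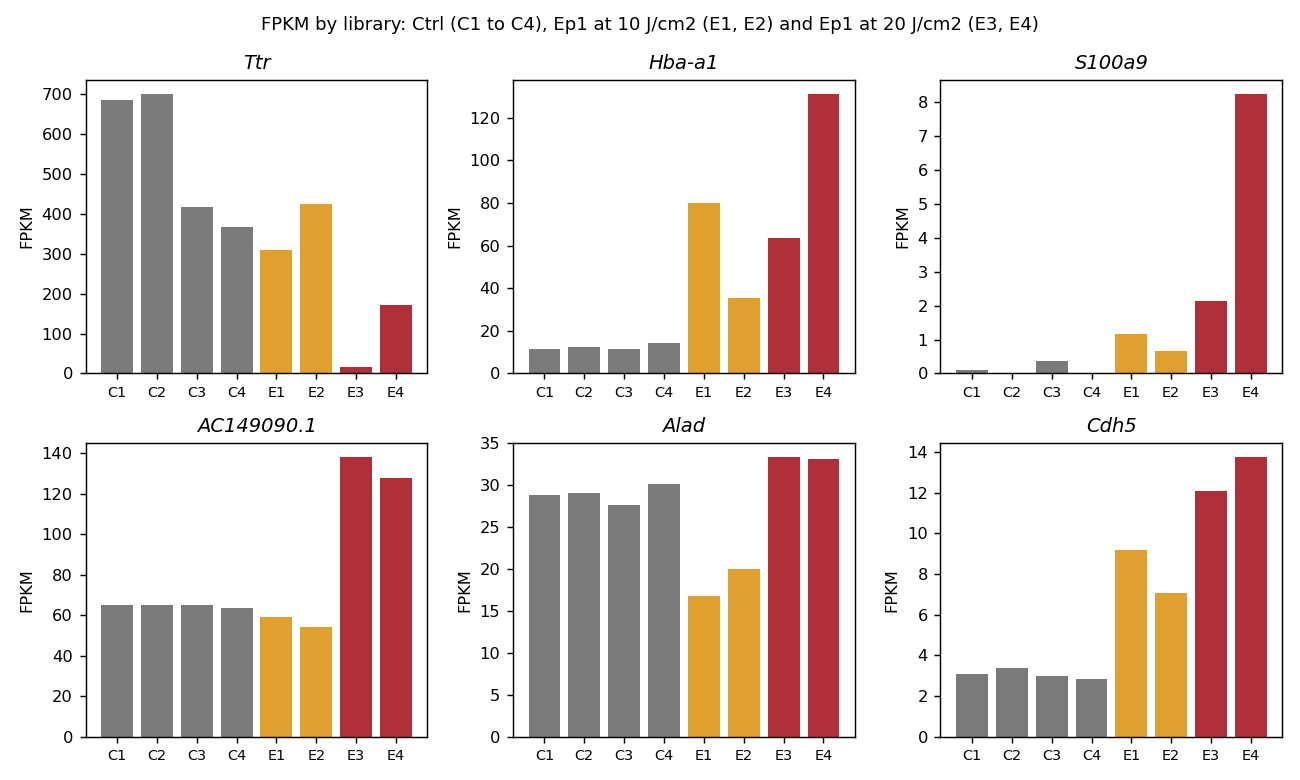
FPKM of 6 genes in each of the 8 libraries, 1 bar a library and each axis starting at 0: Ctrl 1 to 4 (C1 to C4, grey), Ep1 at 10 J/cm2 (E1 and E2, yellow) and Ep1 at 20 J/cm2 (E3 and E4, red). Ttr and S100a9 differ most between E3 and E4, AC149090.1 and Alad separate the energies, and Cdh5 is above all controls in every Ep1 library.

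The Ep1 pair at 20 J/cm2 differed by at least 1 on the log2 scale in 213 genes, 1.44% of those tested, against 155 to 403 genes among pairs of controls. Of the 1964 higher genes 69.4% lay farther from Ctrl in Ep1 4 than in Ep1 3, and of the 1275 lower genes 52.7%. Among genes of at least 500 bases with an annotated symbol the largest gap was that of Ttr, and S100a9, Hbb-bs, Hbb-bt and Sostdc1 were also among those that differed by more than 1. Gapdh, a glycolytic enzyme gene chosen after its values were seen, was lower in Ep1 4 and also varied between controls. It read 26.1, 3.01, 3.06 and 13.3 FPKM in Ctrl 1 to 4 and 11.9 and 3.66 FPKM in Ep1 3 and 4. Of the 3239 genes called, 961 were called again without Ep1 3 and 548 without Ep1 4, against 3190 without Ctrl 3.

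**Figure D5:**
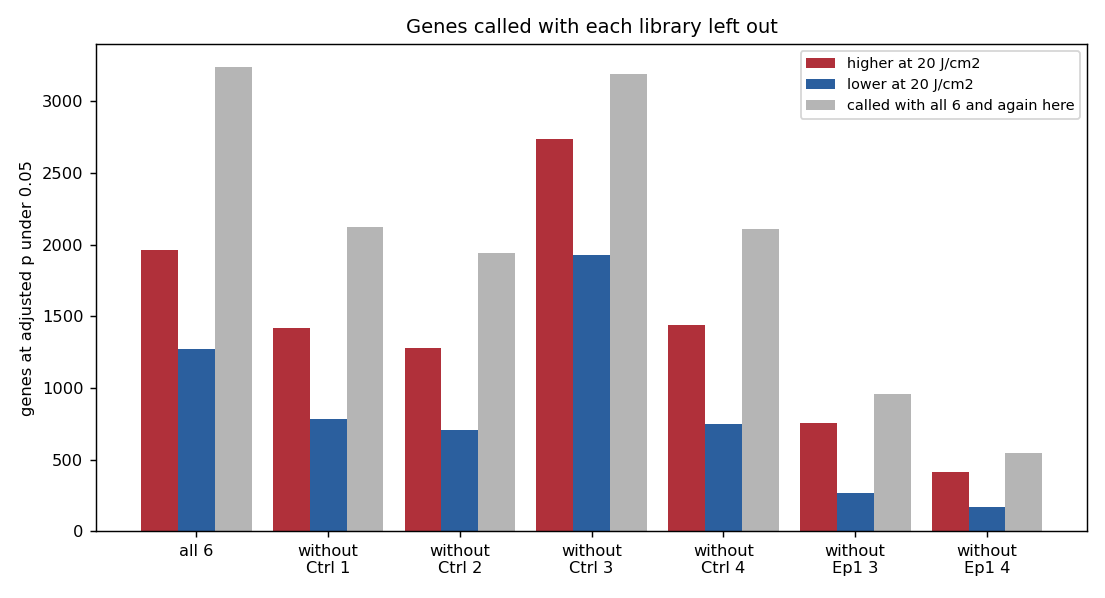
Number of genes at an adjusted p under 0.05 in limma, higher (red) and lower (blue) at 20 J/cm2, with all 6 libraries and with each left out, and the number of the 3239 calls made again (grey). Calls rise to 4667 without Ctrl 3 and drop to 579 without Ep1 4.

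Set against the 10 J/cm2 libraries, the 20 J/cm2 libraries differed in 1 gene of 15047 tested (0.00665%), by a limma fit of all 8 libraries in 3 groups. An unadjusted p under 0.05 was reached by 1080 genes, and the fit with neither a trended nor a robust spread called 3. The gene was AC149090.1, which lies on the unplaced sequence JH584304.1. It read 65.2, 65.2, 65.01 and 63.6 FPKM in Ctrl, 59.05 and 54.5 FPKM in Ep1 1 and 2 and 138 and 128 FPKM in Ep1 3 and 4 (log2 difference 1.22 ± 0.08 SE, limma adjusted p = 0.00309). Only the 20 J/cm2 libraries were high, and the 10 J/cm2 libraries lay slightly below the controls. The call was lost without Ep1 2, Ep1 3 or Ep1 4, when no gene passed. Alad, the second enzyme of haem synthesis, was next by p and did not pass, with 28.8, 29.1, 27.6 and 30.1 FPKM in Ctrl, 16.8 and 20.04 FPKM in Ep1 1 and 2 and 33.3 and 33.1 FPKM in Ep1 3 and 4 (log2 difference 0.82 ± 0.09 SE, limma adjusted p = 0.135). Here the 10 J/cm2 pair was the lower one. Sytl1, a vesicle trafficking gene, read 4.54, 3.86, 3.74 and 4.005 FPKM in Ctrl, 4.66 and 4.48 FPKM in Ep1 1 and 2 and 8.21 and 7.805 FPKM in Ep1 3 and 4 (log2 difference 0.69 ± 0.09 SE, limma adjusted p = 0.268). Gm22615, a gene of 70 bases, was at 0 in the other 6 libraries and at 1.67 and 1.92 FPKM in Ep1 3 and 4, and the last of the 5 genes named by p was a locus without a name, also on JH584304.1.

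The energies share their controls, so their changes against Ctrl are given side by side only. At 10 J/cm2, 1065 of 15047 genes were higher and 468 lower than Ctrl in the same fit, where 20 J/cm2 gave 2063 and 1406. Cdkn1a read 25.5 and 16.4 FPKM in Ep1 1 and 2 against 26.8 and 26.9 FPKM in Ep1 3 and 4, and Hmox1 27.2 and 16.7 FPKM against 20.2 and 27.2 FPKM. The energies overlapped for Hmox1, and for Cdkn1a Ep1 1 came close to the 20 J/cm2 pair. Adm read 6.13 and 4.08 FPKM against 9.31 and 10.7 FPKM (log2 difference 0.87 ± 0.16 SE, limma adjusted p = 0.379), and Cdh5 9.203 and 7.07 FPKM against 12.1 and 13.8 FPKM (log2 difference 0.61 ± 0.12 SE, limma adjusted p = 0.403). For these 2 genes both 20 J/cm2 values exceeded both 10 J/cm2 values, but the differences did not pass after adjustment. Lrrc10b read 9.01 and 6.33 FPKM against 2.31 and 2.496 FPKM (log2 difference -1.33 ± 0.21 SE, limma adjusted p = 0.303) and Drd2 2.69 and 1.22 FPKM against 0.5505 and 0.898 FPKM (log2 difference -0.74 ± 0.23 SE, limma adjusted p = 0.604), lower at 20 J/cm2 without passing. A p that misses the threshold with 2 libraries a group does not show that the energies acted alike.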

How the data were processed

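FPKM values per gene were computed by the authors and deposited as a single table for 8 libraries of total RNA (Trizol, Illumina), per the file headers and the labels' protocols. Bowtie 0.12.2 and mm8 appear, with no role, in the submitters' processing notes, while 99.4% of 55227 gene IDs had the start and end of GRCm38 (GENCODE M21). Columns were assigned to samples by their letter and number. FPKM times gene length gave whole fragments within 0.01 for 100% of values, and these gave the depth. The differential test was limma 3.58.1 (R 4.3.3) on log2(FPKM + 1), with a trended, robust spread, for genes whose mean reached 1 FPKM in Ctrl or in Ep1. The 6 libraries entered the main comparison and all 8, in 3 groups, the comparison of energies. P-values were adjusted by Benjamini-Hochberg over all tested genes (threshold 0.05). The procedure was also run on simulated data with the same spread in both groups and no odd library. That run therefore does not measure the error rate in these data. Python 3.11.15, numpy 2.4.6, pandas 2.3.3 and matplotlib 3.10.9 made the summaries and figures.

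The members and the 44 gene lists (878 genes, 786 tested) were chosen with earlier results of these data known. Named genes were the 12 largest called rises and falls with an annotated symbol and no overlap between groups, from each list up to 4 genes of smallest p, Cldn5, Pecam1, Cdh5, Camk2a, Mbp and Hmox1 whatever their result, and, as fewer than 5 genes were called between energies, the 5 with the smallest p there. Abcb1a, Btg2, C1qb, Drd1, Fos, Gapdh, Nfkbia, Nr4a2, Slc2a1, Tac1, Tek, Tnfaip3 and Tuba1a were named after their values were seen. Alternatives were a pseudocount of 0.1, no filter or one on the mean of all libraries, quantile normalization, scaling without mitochondrial genes and CT010467.1, voom on the recovered fragments, a plain spread, all 8 libraries in the fit, a replicate block and each library left out. A group left with 1 library is assumed to vary like the others. Intervals for counting error were not computed, and the floor of 3 fragments covers counting error only. Some genes that the naming rule selects are not reported here.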

Additional observations from a re-analysis of the deposited data

Results flagged for a closer look

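Single control libraries stood apart from the other 3 for 14 of 181 named genes, by Dixon's test, where chance flags about 1 in 20 groups. The test sets a gap against the range of the 4 controls, so a flagged value can lie close to the others. For AC149090.1 it was 63.6 FPKM against 65.01 to 65.2 FPKM. Ctrl 3 was high for P2ry12 (17.8 FPKM), Gclc (19.7), Gabrb2 (30.3), Pclo (16.9) and Rorb (5.67), and low for Ezr (16.7) and Aldh1l1 (10.4). Ctrl 2 was high for Socs3 (1.26 FPKM), Id1 (9.599) and Aldh1a2 (3.18), and low for Ccl12 (0.102) and Timp1 (1.41). Ctrl 4 was high for Hbb-bs (15.4 FPKM) and low for AC149090.1 (63.6). Ctrl 3 also stood apart in the share of fragments from mitochondrial transcripts, 5.08%, and from CT010467.1, 1.46%. The part of these shares in the 7 genes of Ctrl 3 was not tested. AC149090.1 differed between the energies, with a log2 change of 1.22 from 10 to 20 J/cm2 in the limma fit of all 8 libraries.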

How the results depend on the processing

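With each library left out in turn, the genes called at 20 J/cm2 against Ctrl numbered 579 to 4667, of which 412 to 2735 were higher and 167 to 1932 lower. With no filter on low values 728 genes were lower. A replicate block on the numbers that Ctrl and Ep1 share gave 1214 genes, 809 higher and 405 lower. Ctrl 1 and Ctrl 2 have no 20 J/cm2 library of the same number. The change in that fit therefore rests on Ctrl 3 and 4 against Ep1 3 and 4 alone. The pairing check gave correlations of -0.0209 between the deviations of Ctrl 3 and Ep1 3 and 0.0195 between those of Ctrl 4 and Ep1 4. The deviations of the 2 Ep1 libraries mirror each other, so this check cannot decide whether shared numbers mark paired samples. Between the energies, where 1 gene was called, 4 were called with no filter, 3 with a plain spread, 0 with the replicate block and 0 to 1 with a library left out. No called value of a named gene changed sign under these settings, while the uncalled changes of Mt3, mt-Co3, Camk2a and Mbp did. 9 named genes had no value under the filter on the mean of all libraries. Of the 181 named genes, 38 lost their call under the block, 39 without Ep1 3, 48 without Ep1 4 and 9 with no filter. The cause was not tested. With 2 libraries at 20 J/cm2, and genes under about 0.2 FPKM resting on a few fragments, changes at low levels are the least precise.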
